A study of Danio rerio with 6 samples.

Results

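The genes of the mitochondrial respiratory chain were compared between ddx4-L mutant and wild-type (WT) zebrafish ovaries. Rows of the count table were taken by gene symbol, ignoring case: symbols starting with nduf and then a, b, c, s or v, with sdh and then a, b, c or d, with uqcr, with cox and a digit between 4 and 8, with atp5 or with mt-. A row also had to hold at least 10 counts in 3 or more of the 6 libraries. Of 32519 rows, 29200 carried a symbol, 121 matched these symbols and 119 met the count limit. The 119 genes were 106 nuclear and 13 mitochondrially encoded genes. The nuclear genes comprised 38 of complex I, 5 of complex II, 8 of complex III, 23 of complex IV and 18 of complex V, together with 12 assembly factors (NDUFAF and SDHAF genes) and 2 inhibitors of ATP synthase (atp5if1a and atp5if1b), which share the symbols but are not subunits. NDUFA4 and its copies were counted with complex IV, where the mammalian protein is found. All but 1 of the 119 genes passed the filter of the test, which covered 19353 genes.

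The study asked what loss of an ovary-biased transcript of ddx4, the germline RNA helicase gene also known as vasa, does to the transcriptome of the ovary. The ddx4-L mutant line (ddx4-E4Δ) was made with CRISPR-Cas9 and carries a deletion of 7 bp in the alternative exon 4, which only the long transcript ddx4-L contains. RNA from ddx4-L mutant ovaries at 6 months post-fertilization (3 libraries) and from WT ovaries of the same age (3 libraries) was sequenced. The study describes the libraries of a genotype as biological replicates. The labels state neither the zygosity nor whether a library came from 1 fish or several, and the p-values below measure the spread between these libraries.

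Complexes I and II take electrons from NADH and succinate and hand them to ubiquinone, complex III passes them through cytochrome c to complex IV, and complex IV reduces oxygen to water. Complexes I, III and IV pump protons as they work, and complex V, the ATP synthase, makes ATP from the returning protons. Most subunits are encoded in the nucleus and imported, a small core of complexes I, III, IV and V is encoded by the mitochondrial genome, and complex II is wholly nuclear. The growing oocyte stores the mitochondria that the embryo will inherit.

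The counts of a library summed to between 76520483 and 86263179. These sums are far above the clean reads that the study lists for each library, so a count here does not stand for a single read and the sums are not the depth. All 14 growing oocyte markers found were tested, with a summed level of 20015 to 26854 CPM (counts scaled to the size of the library) in ddx4-L mutant ovaries and of 24864 to 25446 CPM in WT ovaries. Their log2 fold changes were above 0 in 7 and below 0 in 7, from -0.82 to 0.64. Their median log2 difference from the mean over the 6 libraries was -0.28, -0.011 and 0.16 in ddx4-L mutant and -0.016, 0.11 and 0.05 in WT libraries. The 9 tested of 12 early meiotic prophase markers summed to less in every ddx4-L mutant library, with 19.1, 20.1 and 19.9 CPM against 34.1, 29.1 and 33.6 CPM in WT. Of these, 6 had log2 fold changes below 0 and 3 above 0, from -4.67 to 1.47. The list includes sycp1, whose strong fall the study itself reported. The median log2 difference of these meiotic markers from their mean over the 6 libraries was 0.32 in mutant replicate 2, above 0.042 in WT replicate 3. It was -0.43 and -0.31 in the other ddx4-L mutant libraries and 0.65 and 0.73 in the other WT libraries. The study describes fewer early-stage oocytes on sections of older ddx4-L mutant ovaries. The 10 granulosa and theca markers found, of 17 listed, overlapped in sum, with 116, 129 and 122 CPM in ddx4-L mutant and 139, 118 and 107 CPM in WT. They did not move together: 4 had log2 fold changes above 0 and 6 below 0, from -1.54 to 2.74. The ddx4 gene itself, counted over all transcripts, stood at 243 ± 10.3 CPM in ddx4-L mutant and 223 ± 16.5 CPM in WT ovaries (SD, n = 3 each), which is no check of the genotype because the deletion leaves most of the gene to be counted. Mutant replicate 2 stood apart: the 7 tested of 11 liver markers summed to 3200 CPM, against 37.7 and 14.4 CPM in the other ddx4-L mutant libraries and 1.21 to 6.76 CPM in WT libraries. Mutant replicate 3 stood apart in the respiratory chain genes themselves, as described below. In these whole ovaries fewer cells of a type and less RNA per cell cannot be told apart.

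Few respiratory chain genes differed between ddx4-L mutant and WT ovaries by the test. Of 118 tested genes, 2 rose (atp5f1e and atp5meb, both of ATP synthase) and 1 fell (UQCRFS1 of complex III). A gene was called where the quasi-likelihood test of edgeR gave a p that, adjusted by Benjamini and Hochberg's method across the 19353 genes, was below 0.05. These 3 are 2.54% of the members, against 4.57% of all genes tested (1.96% higher and 2.61% lower). No member was called with a log2 fold change of 1 or more in either direction, a limit that 3.11% of all genes reached. The study also set a limit on the fold change, without naming its scale. At an unadjusted p under 0.05 there were 10 members higher (8.47%) and 5 lower (4.24%), against 9.98% and 9.96% of all genes. The log2 fold changes lay mostly on 1 side: 84 of the 118 (71.2%) were above 0, against 51.5% of all genes. In 22 members (18.6%) every ddx4-L mutant library was above every WT library, against 14.3% of all genes, and in 7 members (5.93%) every ddx4-L mutant library was below, against 14.0% of all genes.

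**Figure D1:**
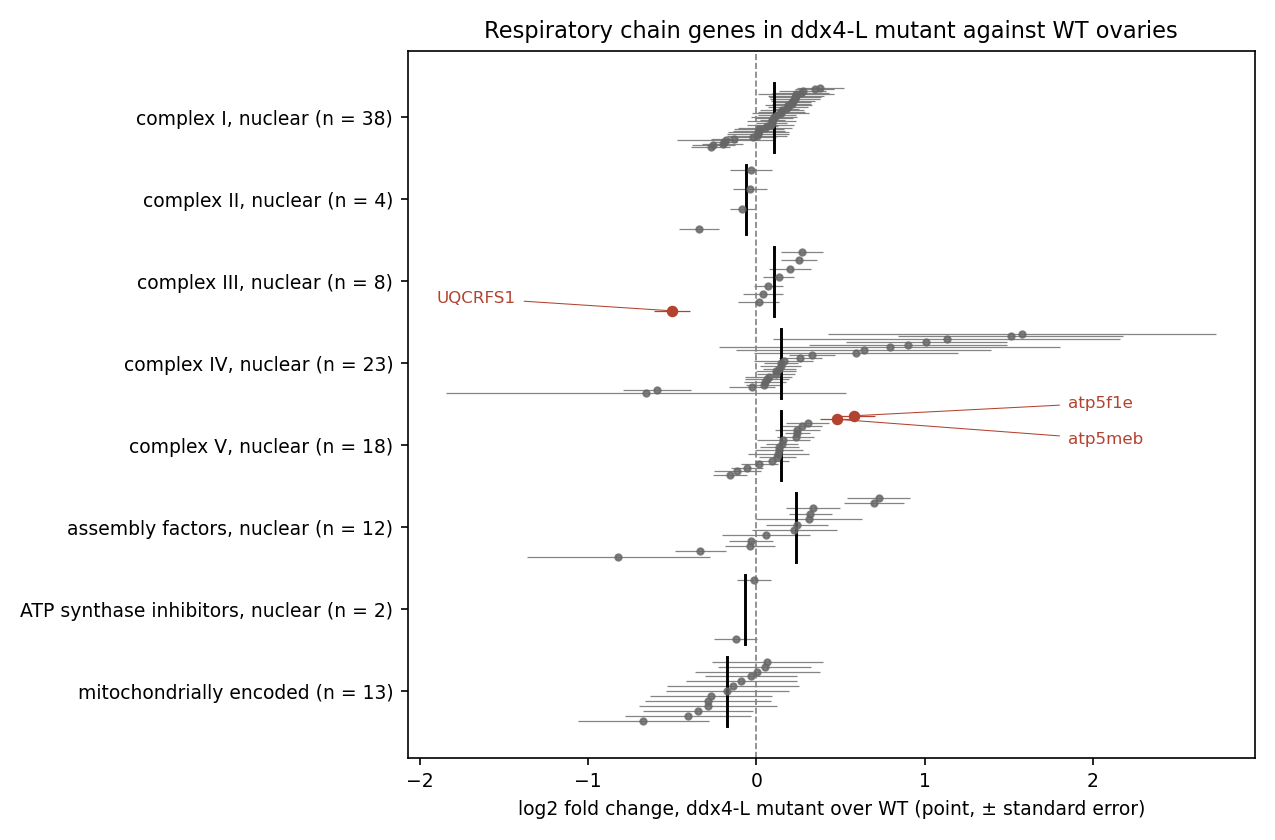
Log2 fold change of ddx4-L mutant over WT ovaries (x axis) for the 118 tested genes, grouped by complex (y axis). Points are genes, thin bars are ± 1 standard error, black lines are group medians, and the 3 genes called in the edgeR test are in red; the wide bars in complex IV belong to genes of low level, and the mitochondrially encoded genes lie mostly left of 0.

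The first of the called genes was UQCRFS1 (ENSDARG00000007745), the Rieske iron-sulfur protein, which takes electrons from ubiquinol in complex III. It had 101, 103 and 125 CPM in ddx4-L mutant ovaries, against 170, 151 and 146 CPM in WT ovaries. The genotypes did not overlap, and mutant replicate 3 lay nearest to the WT libraries. UQCRFS1 fell, with a log2 fold change of -0.50 ± 0.11 (SE) and an edgeR adjusted p of 0.048, or 0.71 times the WT mean. With 1 library left out in turn the log2 fold change lay between -0.60 and -0.44 and the edgeR adjusted p between 0.029 and 0.142, and the gene was called only without mutant replicate 3. Of 9 other settings it was called in 5, with adjusted p of 0.0021 to 0.118 over edgeR and DESeq2.

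No other gene of complex III was called. The 7 other nuclear members all had log2 fold changes above 0, and the median of the 8 was 0.10 (0.030 without mutant replicate 3). UQCRB, a small subunit beside the ubiquinone site, had 56.0, 59.8 and 74.3 CPM in ddx4-L mutant and 52.4, 50.8 and 54.4 CPM in WT ovaries (log2 fold change 0.27 ± 0.12, SE, edgeR adjusted p = 0.28). The genotypes did not overlap, and mutant replicate 3 lay well above the other 5 libraries. The core protein gene UQCRC1 had 151, 165 and 179 CPM in ddx4-L mutant and 152, 158 and 160 CPM in WT ovaries, and its genotypes overlapped. The core protein gene uqcrc2a had 65.1, 60.2 and 75.1 CPM in ddx4-L mutant and 57.1, 57.6 and 53.8 CPM in WT ovaries (edgeR adjusted p = 0.25). Its more abundant copy UQCRC2 had 121, 123 and 141 CPM in ddx4-L mutant and 115, 111 and 125 CPM in WT ovaries, with overlap (edgeR adjusted p = 0.48).

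Both genes that rose belong to ATP synthase. The gene atp5f1e (ENSDARG00000095897) encodes the epsilon subunit of the central stalk, which turns within the catalytic F1 head. It had 67.7, 68.2 and 83.3 CPM in ddx4-L mutant ovaries, against 43.7, 53.9 and 49.2 CPM in WT ovaries. The lowest ddx4-L mutant library was above the highest WT library, and mutant replicate 3 was the highest of all. The log2 fold change was 0.58 ± 0.13 (SE), 1.49 times the WT mean, with an edgeR adjusted p of 0.048.

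The gene atp5meb (ENSDARG00000068940) encodes subunit e, a membrane subunit of the Fo part that is needed for pairs of ATP synthases to form in yeast. It had 72.6, 69.6 and 83.2 CPM in ddx4-L mutant ovaries, against 56.9, 50.7 and 54.3 CPM in WT ovaries. Again the genotypes were apart, with mutant replicate 3 on top. The log2 fold change was 0.48 ± 0.10 (SE), 1.39 times the WT mean, with an edgeR adjusted p of 0.047. Its copy atp5mea had 29.0, 27.5 and 35.2 CPM in ddx4-L mutant and 29.6, 35.5 and 34.1 CPM in WT ovaries (log2 fold change -0.11 ± 0.14, SE, with edgeR adjusted p = 0.70). The copies were counted side by side, and how reads matching both were treated is not given in the sources used here, so the split between them is uncertain.

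**Figure D2:**
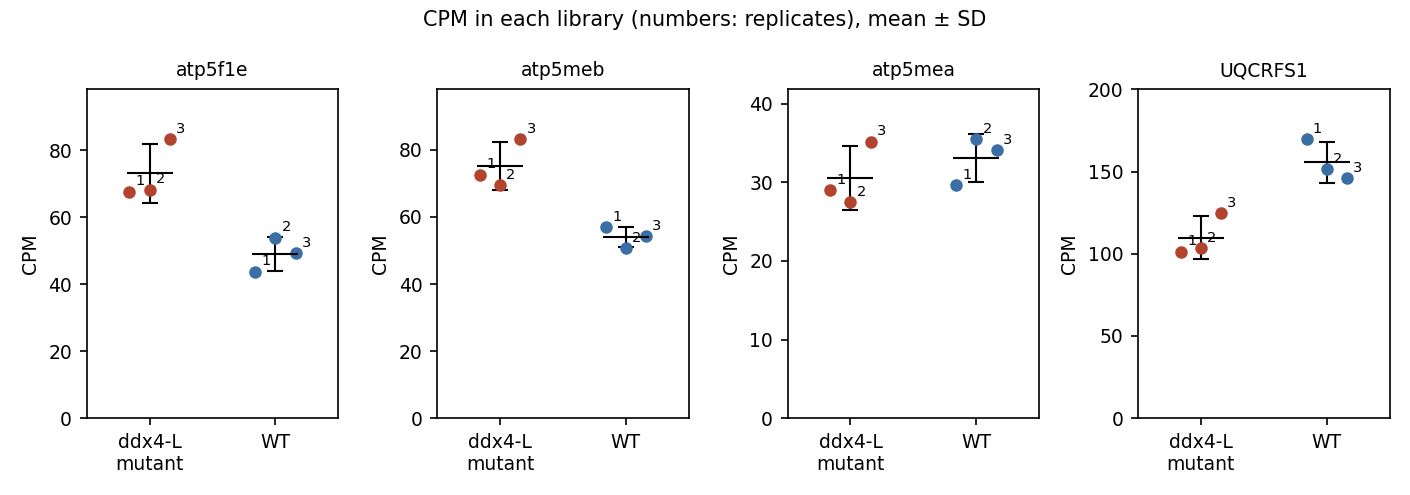
CPM of atp5f1e, atp5meb, its copy atp5mea and UQCRFS1 in the 3 ddx4-L mutant libraries (left, red) and the 3 WT libraries (right, blue), numbered by replicate; the long dash is the mean and the bar is ± SD. The genotypes are apart for atp5f1e, atp5meb and UQCRFS1 and overlap for atp5mea, and mutant replicate 3 is the highest ddx4-L mutant library in all 4 panels.

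Both rises were close to the limit of the test. With any 1 library left out, neither gene was called: the edgeR adjusted p lay between 0.071 and 0.136 for atp5f1e and between 0.076 and 0.126 for atp5meb, while the log2 fold changes stayed between 0.47 and 0.65 and between 0.40 and 0.52. Without mutant replicate 3 the edgeR adjusted p was 0.086 for atp5f1e and 0.076 for atp5meb, and without mutant replicate 2 it was 0.099 and 0.090. Of 9 other settings atp5f1e was called in 4 and atp5meb in 5.

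Within ATP synthase, 15 of 18 nuclear genes had log2 fold changes above 0, with a median of 0.14 that was 0.049 without mutant replicate 3. The catalytic genes ATP5F1A and ATP5F1B (alpha and beta subunits of F1) went different ways and neither was called. ATP5F1A had 1159, 1316 and 1265 CPM in ddx4-L mutant and 1131, 1130 and 1247 CPM in WT ovaries. ATP5F1B had 971, 1059 and 1120 CPM in ddx4-L mutant and 1107, 1171 and 1232 CPM in WT ovaries. In both genes the genotypes overlapped, with log2 fold changes of 0.092 and -0.16. Of the 13 genes of the Fo part and the peripheral stalk, 12 had log2 fold changes above 0, with a median of 0.16 (9 and 0.022 without mutant replicate 3). Among them ATP5MC3, 1 of 3 genes listed for subunit c, the proton-carrying ring, had 115, 124 and 127 CPM in ddx4-L mutant and 102, 106 and 101 CPM in WT ovaries, without overlap (log2 fold change 0.24 ± 0.074, SE, with edgeR adjusted p = 0.125). The more abundant copy atp5mc1 had 346, 339 and 418 CPM in ddx4-L mutant and 342, 354 and 316 CPM in WT ovaries, with overlap (edgeR adjusted p = 0.59). The copy atp5mc3b, also more abundant, had 412, 377 and 505 CPM in ddx4-L mutant and 365, 345 and 364 CPM in WT ovaries, without overlap (edgeR adjusted p = 0.27). The 2 inhibitor genes, whose product halts ATP synthase when it would run backwards, lay near 0: atp5if1a had a log2 fold change of -0.014 (edgeR adjusted p = 0.96) and atp5if1b of -0.12 (edgeR adjusted p = 0.65).

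In complex I no gene passed the test. Of 38 nuclear genes, 31 had log2 fold changes above 0, with a median of 0.10 and a range of -0.27 to 0.38. Without mutant replicate 3 this median was 0.018. The 7 core genes, which carry the flavin and the iron-sulfur clusters or sit in the quinone pocket, had a median of 0.063 with 4 above 0, and the 31 supernumerary genes, which wrap the core, had a median of 0.12 with 27 above 0. Without mutant replicate 3 the medians were -0.0015 for the core genes, with 3 above 0, and 0.020 for the supernumerary genes, with 20 above 0. NDUFV1, which binds the flavin that takes electrons from NADH, had 148, 158 and 163 CPM in ddx4-L mutant and 178, 175 and 184 CPM in WT ovaries. The genotypes were apart with all ddx4-L mutant libraries lower (log2 fold change -0.19 ± 0.075, SE, edgeR adjusted p = 0.21). Its partner NDUFV2 had 46.7, 59.7 and 60.6 CPM in ddx4-L mutant and 60.8, 66.6 and 72.0 CPM in WT ovaries, also without overlap (edgeR adjusted p = 0.33). NDUFS1, the largest core iron-sulfur subunit, lay the other way, with 162, 173 and 170 CPM in ddx4-L mutant and 143, 158 and 147 CPM in WT ovaries (edgeR adjusted p = 0.26).

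The lowest adjusted p in complex I belonged to ndufv3, a supernumerary subunit of the NADH-binding module. The study reported a difference in its splicing between WT and ddx4-L mutant ovaries, which it also checked by RT-PCR. Counted over all isoforms, ndufv3 had 36.2, 41.5 and 43.8 CPM in ddx4-L mutant and 31.2, 30.4 and 34.0 CPM in WT ovaries. All ddx4-L mutant libraries were above all WT libraries (log2 fold change 0.35 ± 0.12, SE, with edgeR adjusted p = 0.15), and counts per gene do not separate its isoforms. The highest log2 fold change in complex I was that of NDUFS5, a small subunit facing the intermembrane space, at 0.38 (edgeR adjusted p = 0.19), and the lowest that of NDUFA10 at -0.27 (edgeR adjusted p = 0.25).

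Complex II is the link to the citric acid cycle. All 4 tested genes had log2 fold changes below 0, with a median of -0.061 (between -0.13 and -0.033 with 1 library left out), though none passed the test. SDHC, which anchors the complex in the membrane, had 36.5, 35.1 and 42.9 CPM in ddx4-L mutant and 49.9, 50.5 and 44.6 CPM in WT ovaries, with no overlap (log2 fold change -0.34 ± 0.12, SE, with edgeR adjusted p = 0.16). SDHB, the iron-sulfur subunit, had 76.5, 80.2 and 81.3 CPM in ddx4-L mutant and 83.1, 83.0 and 86.1 CPM in WT ovaries, a narrow gap (edgeR adjusted p = 0.59). The flavoprotein gene SDHA overlapped between genotypes and had a log2 fold change of -0.039, which was 0.039 when libraries were scaled by their totals. On that scale the median of complex II was 0.018. The second row with the symbol SDHD (ENSDARG00000055712), the gene that did not pass the filter, had 14, 0 and 9 counts in ddx4-L mutant and 9, 27 and 11 counts in WT ovaries.

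In complex IV the 14 nuclear genes with a mean of at least 5 CPM had a median log2 fold change of 0.12, with 12 above 0. Without mutant replicate 3 the median was -0.014, with 6 above 0, and leaving out any other library gave 0.088 to 0.159. COX5A, a matrix subunit, had 39.9, 44.2 and 53.0 CPM in ddx4-L mutant and 33.5, 39.4 and 36.2 CPM in WT ovaries, without overlap (edgeR adjusted p = 0.23). Its more abundant copy cox5aa had 87.7, 84.4 and 112 CPM in ddx4-L mutant and 86.7, 88.7 and 86.9 CPM in WT ovaries, with overlap (edgeR adjusted p = 0.64). The gene cox8a, a small membrane subunit, lay the other way: it had 11.4, 9.73 and 15.0 CPM in ddx4-L mutant and 19.0, 19.5 and 15.9 CPM in WT ovaries (log2 fold change -0.59 ± 0.20, SE, with edgeR adjusted p = 0.16). These genotypes were apart, by less than 1 CPM between mutant replicate 3 and WT replicate 3.

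The other 9 complex IV genes had means under 5 CPM and include copies known in mammals from muscle or lung. Their log2 fold changes had a median of 0.90 with wide errors (median SE 0.76), and 8 of 9 were above 0. This median lay between 0.60 without WT replicate 1 and 1.59 without WT replicate 3. The copy cox8b had 2.05, 0.863 and 2.40 CPM in ddx4-L mutant and 0.510, 0.728 and 1.60 CPM in WT ovaries, and the copy COX6A1 (ENSDARG00000054588) had 2.68, 1.02 and 2.12 CPM in ddx4-L mutant and 0.658, 1.11 and 1.12 CPM in WT ovaries. Both overlapped between genotypes (edgeR adjusted p = 0.45 and 0.29). The 9 genes together had 13.1, 4.98 and 10.1 CPM in ddx4-L mutant and 3.09, 3.59 and 8.83 CPM in WT ovaries, so that mutant replicates 1 and 3 and WT replicate 3 were the highest libraries. The same libraries were high in stroma markers, with 158, 32.6 and 84.3 CPM in ddx4-L mutant and 43.1, 29.5 and 97.8 CPM in WT ovaries over 9 genes, all of them tested, with lum at 0 counts in WT replicate 1. They were also high in immune markers, with 103, 37.4 and 81.8 CPM in ddx4-L mutant and 24.4, 42.5 and 72.0 CPM in WT ovaries over 10 genes, with cd4-1 at 0 counts in mutant replicate 2. Skeletal muscle markers (8 genes found, of which 5 were tested and pvalb1 was at 0 in all libraries) did not follow, with 2.50, 3.06 and 2.22 CPM in ddx4-L mutant and 5.36, 2.69 and 4.15 CPM in WT ovaries. The part of these cells in the level of the copies was not tested.

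At the edge of the count limit stood NDUFA4L2, a copy of NDUFA4, with 20, 0 and 9 counts in ddx4-L mutant and 11, 16 and 17 counts in WT ovaries. Just above it were ndufa4b, with 53, 24 and 50 counts in ddx4-L mutant and 8, 11 and 25 counts in WT ovaries, and cox7a1, with 53, 31 and 83 counts in ddx4-L mutant and 27, 0 and 28 counts in WT ovaries. None of these 3 was called, and most of these values are near the level of a few reads. The rows just outside were ndufa4l2b, with 0 counts in every library, and another COX5B row (ENSDARG00000113254), with at most 8 counts.

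**Figure D3:**
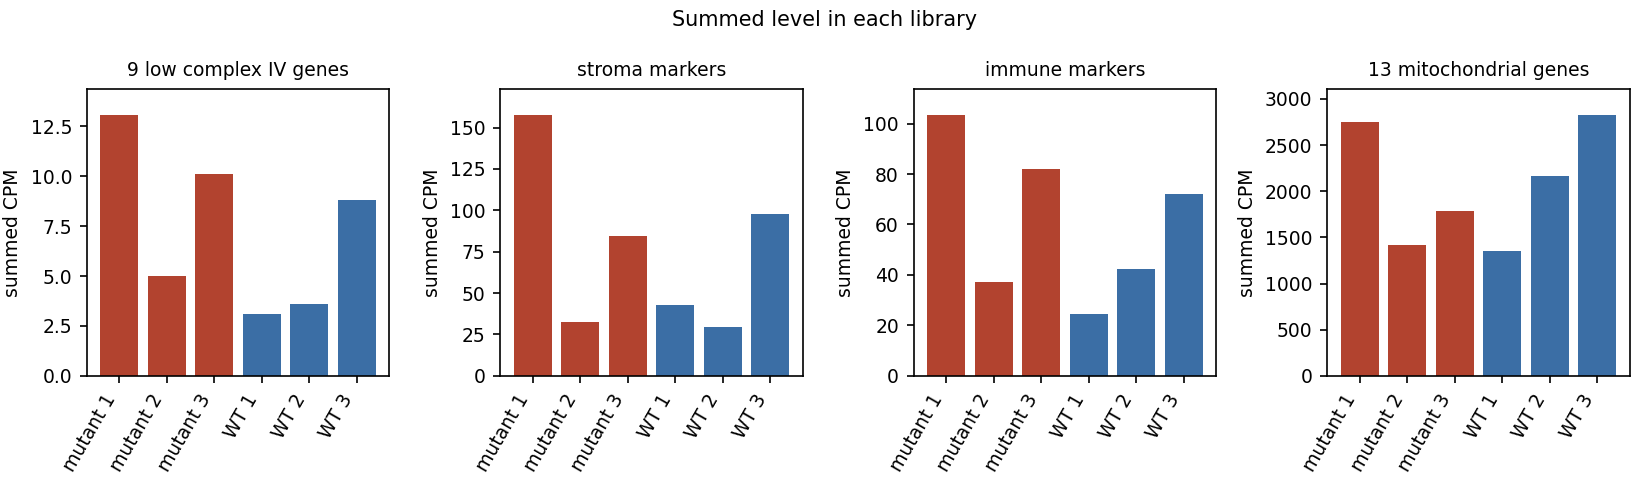
Summed CPM (y axis, from 0) in each of the 3 ddx4-L mutant libraries (red) and 3 WT libraries (blue) for the 9 complex IV genes under 5 CPM, the stroma markers, the immune markers and the 13 mitochondrially encoded genes. Mutant replicates 1 and 3 and WT replicate 3 are the highest 3 libraries in the first 3 panels, while mutant replicate 1 and WT replicate 3 are the highest in the last.

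The 13 mitochondrially encoded genes, the core subunits made within the organelle, varied more between libraries of a genotype than between genotypes. They took 0.297%, 0.142% and 0.180% of the counts in ddx4-L mutant libraries and 0.131%, 0.210% and 0.276% in WT libraries, or 0.206% ± 0.081 in ddx4-L mutant and 0.206% ± 0.073 in WT ovaries (SD, n = 3 each). Mutant replicate 1 and WT replicate 3 were the highest and WT replicate 1 and mutant replicate 2 the lowest. MT-CO1, the catalytic subunit of complex IV, had 799, 517 and 546 CPM in ddx4-L mutant and 359, 709 and 913 CPM in WT ovaries. MT-CYB, the cytochrome b of complex III, had 324, 139 and 181 CPM in ddx4-L mutant and 152, 195 and 269 CPM in WT ovaries. MT-ATP6, the proton channel subunit of ATP synthase, had 221, 75.5 and 141 CPM in ddx4-L mutant and 108, 154 and 219 CPM in WT ovaries. In all 13 genes the genotypes overlapped, and none was called.

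The log2 fold changes of the 13 genes had a median of -0.17, with 10 below 0, and their standard errors had a median of 0.37, against 0.13 for the nuclear subunits. The lowest was that of MT-ND3, a membrane subunit of complex I, at -0.67 ± 0.39 (SE), with 14.5, 5.45 and 9.94 CPM in ddx4-L mutant and 10.1, 18.6 and 18.9 CPM in WT ovaries (edgeR adjusted p = 0.40). The highest was that of MT-CYB at 0.065 ± 0.33 (SE; edgeR adjusted p = 0.94). The direction of the set rested on single libraries: the median was -0.60 without mutant replicate 1 and -0.39 without WT replicate 1, but 0.014 without mutant replicate 2 and 0.066 without WT replicate 3. Of the remaining mitochondrial genes, MT-ND1, MT-ND4, MT-ND5, MT-ND6 and mt-nd4l of complex I had log2 fold changes of -0.41 to -0.27 and MT-ND2 of 0.0053. MT-CO2 and MT-CO3 of complex IV had 0.049 and -0.034, and mt-atp8 of complex V had -0.17. Neighbouring mitochondrial genes overlap in part, so reads of mt-atp8 and MT-ATP6, or of mt-nd4l and MT-ND4, may not be fully separable.

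Nuclear and mitochondrial subunits of the same complexes did not share their pattern over the libraries. Of 91 nuclear subunits tested, 73 had log2 fold changes above 0, with a median of 0.13, against 0.014 for all genes. Mutant replicate 3 was the highest library for 67 of the 81 nuclear subunits with a mean of at least 5 CPM (82.7%), against 28.4% of all genes with a mean of at least 10 CPM. The median difference of the 91 nuclear subunits from their mean over the 6 libraries, on the log2(CPM + 0.1) scale, was -0.027, -0.055 and 0.26 in ddx4-L mutant libraries and -0.094, -0.032 and -0.0425 in WT libraries. For the mitochondrial genes the same quantity was 0.49, -0.63 and -0.17 in ddx4-L mutant and -0.40, 0.24 and 0.55 in WT libraries.

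The values in mutant replicate 3 were given for each part of the chain in turn, and no test was made between parts. Its median difference from the mean was 0.29 for the supernumerary genes of complex I and 0.10 for the core genes, 0.34 for the Fo and stalk genes of ATP synthase and 0.13 for the F1 genes, 0.22 for complex III, 0.26 for the complex IV genes of at least 5 CPM and -0.0021 for complex II. Without mutant replicate 3 the median log2 fold change of the 91 nuclear subunits was 0.020 with 54 above 0, whereas leaving out any other library gave 0.11 to 0.16 with 69 to 75 above 0. Without it, 20 nuclear subunits were apart and higher and 19 apart and lower in ddx4-L mutant ovaries, against 20.4% and 19.0% of all genes. These 20 and 19 genes were 22% and 20.9% of the nuclear subunits. With all libraries 19 (20.9%) were apart and higher and 6 (6.59%) apart and lower, against 14.3% and 14.0% of all genes. Leaving out any other library gave 21 to 29 higher and 6 to 9 lower, against 18.7% to 19.9% and 18.1% to 19.9% of all genes.

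Genes outside the chain stood high in the same library. Over 79 cytosolic ribosomal protein genes the median difference of mutant replicate 3 was 0.26, and it was the highest library for 72 of them. Over 75 mitochondrial ribosomal protein genes it was 0.23 and over 47 proteasome subunit genes 0.15. These groups were chosen after the values of the respiratory chain were seen. What sets mutant replicate 3 apart was not tested.

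**Figure D4:**
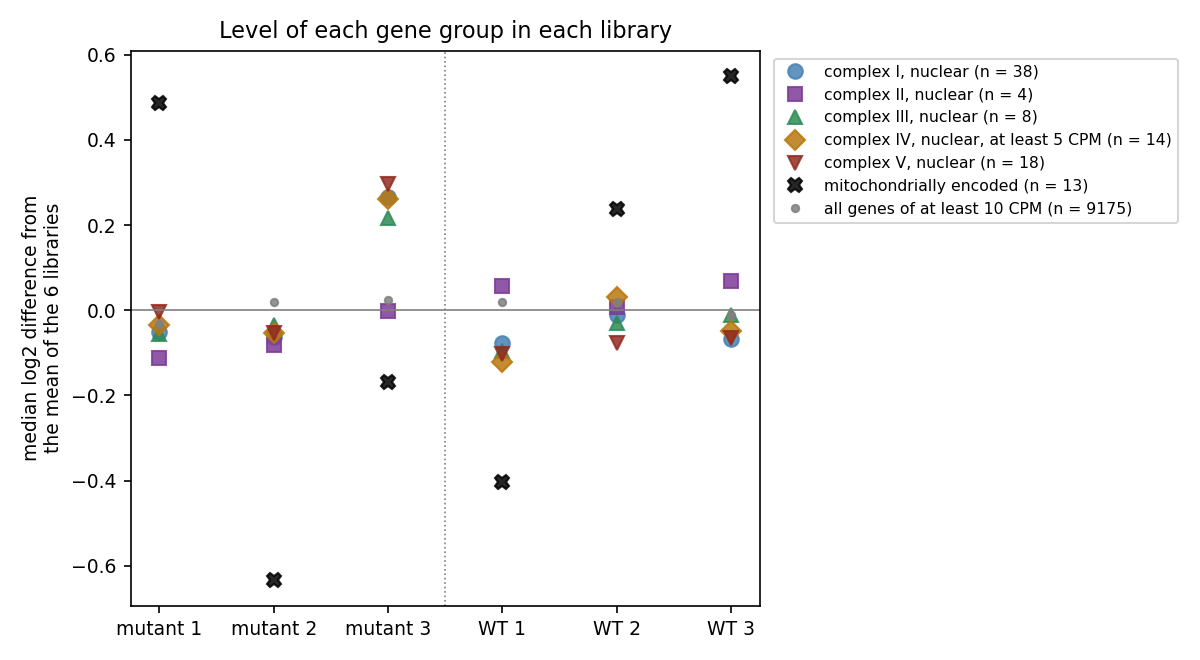
Median log2 difference of each gene group from its mean over the 6 libraries (y axis), in the 3 ddx4-L mutant libraries (left) and the 3 WT libraries (right); n is the number of genes. Complexes I, III, IV and V of nuclear origin lie at 0.22 to 0.30 in mutant replicate 3 and at -0.12 to 0.032 elsewhere. Complex II lies at -0.11, -0.081 and -0.0021 in mutant replicates 1, 2 and 3, so it is highest of the ddx4-L mutant libraries in replicate 3 but not above 0. The mitochondrially encoded genes (crosses) spread from -0.63 to 0.49 in ddx4-L mutant libraries and from -0.40 to 0.55 in WT libraries.

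Assembly factors build the complexes without staying in them. Of the 12 that carry the symbols, 8 had log2 fold changes above 0, with a median of 0.23, and none was called. The median was 0.022 without mutant replicate 3 and 0.12 without WT replicate 3. NDUFAF2, which binds a late intermediate of complex I, had 52.6, 55.6 and 65.3 CPM in ddx4-L mutant and 44.5, 34.2 and 28.3 CPM in WT ovaries. SDHAF3, a factor for the iron-sulfur subunit of complex II, had 12.8, 14.2 and 17.3 CPM in ddx4-L mutant and 9.62, 9.05 and 8.10 CPM in WT ovaries. Both were apart between genotypes, with log2 fold changes of 0.70 ± 0.18 and 0.73 ± 0.19 (SE; edgeR adjusted p = 0.076 and 0.078), and both were called by DESeq2 (adjusted p = 0.0062 and 0.0057), which called 12.0% of all genes. Over the other alternatives the edgeR adjusted p reached 0.178 for NDUFAF2, which was called without WT replicate 1 (0.045), and 0.191 for SDHAF3. SDHAF2 lay the other way, with 20.9, 22.1 and 23.4 CPM in ddx4-L mutant and 33.0, 26.5 and 24.1 CPM in WT ovaries. Its genotypes were also apart (log2 fold change -0.33 ± 0.15, SE, with edgeR adjusted p = 0.27).

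NDUFAF3, an early factor for complex I, split the ddx4-L mutant libraries. It had 6.28, 6.88 and 26.7 CPM in ddx4-L mutant and 27.3, 23.8 and 19.4 CPM in WT ovaries, so that mutant replicate 3 lay within the WT range and the other ddx4-L mutant libraries far below it. The log2 fold change was -0.82 ± 0.54 (SE; edgeR adjusted p = 0.46) with all libraries, and -1.84 (edgeR adjusted p = 0.015) without mutant replicate 3. Leaving out another library gave log2 fold changes up to -0.49 and edgeR adjusted p up to 0.69.

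The partners of the chain were taken from lists of related genes, and their counts stand against 1.96% of all genes called higher and 2.61% called lower. Of 54 tested assembly factors and translational activators, a list that includes the 12 above, 1 rose and none fell. That gene was atpaf1, a chaperone that in yeast and mammals holds the beta subunit while the F1 head is built. It had 74.9, 54.3 and 69.6 CPM in ddx4-L mutant and 29.0, 30.1 and 25.3 CPM in WT ovaries, 2 well separated groups (log2 fold change 1.24 ± 0.15, SE, with edgeR adjusted p = 0.0070). It was called with any 1 library left out, at edgeR adjusted p of 0.0089 to 0.027. The beta subunit gene ATP5F1B had a log2 fold change of -0.16 and was not called, and a link between these genes was not tested.

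Of 33 tested genes for upkeep and transcription of the mitochondrial genome, 1 rose and 1 fell. TFAM, which packages mitochondrial DNA and starts its transcription, had 17.3, 20.4 and 28.5 CPM in ddx4-L mutant and 9.24, 6.14 and 6.39 CPM in WT ovaries (log2 fold change 1.60 ± 0.26, SE, with edgeR adjusted p = 0.019). The genotypes were apart, with mutant replicate 3 highest. TFAM lost the call without mutant replicate 2 (0.054), WT replicate 2 (0.057) or WT replicate 3 (0.060), and of 9 other settings it was called in 8 (edgeR adjusted p up to 0.068). The gene fastkd2, whose mammalian product binds mitochondrial RNA and is needed for the mitochondrial ribosome, had 4.39, 6.07 and 4.12 CPM in ddx4-L mutant and 56.5, 65.0 and 53.1 CPM in WT ovaries (log2 fold change -3.58 ± 0.19, SE, with edgeR adjusted p = 0.00022). Every ddx4-L mutant library was far below every WT library. The 13 mitochondrial transcripts were not called in either direction, but their median SE was 0.37 and no mitochondrial rRNA was among them. Whether they depend on fastkd2 was not tested.

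**Figure D5:**
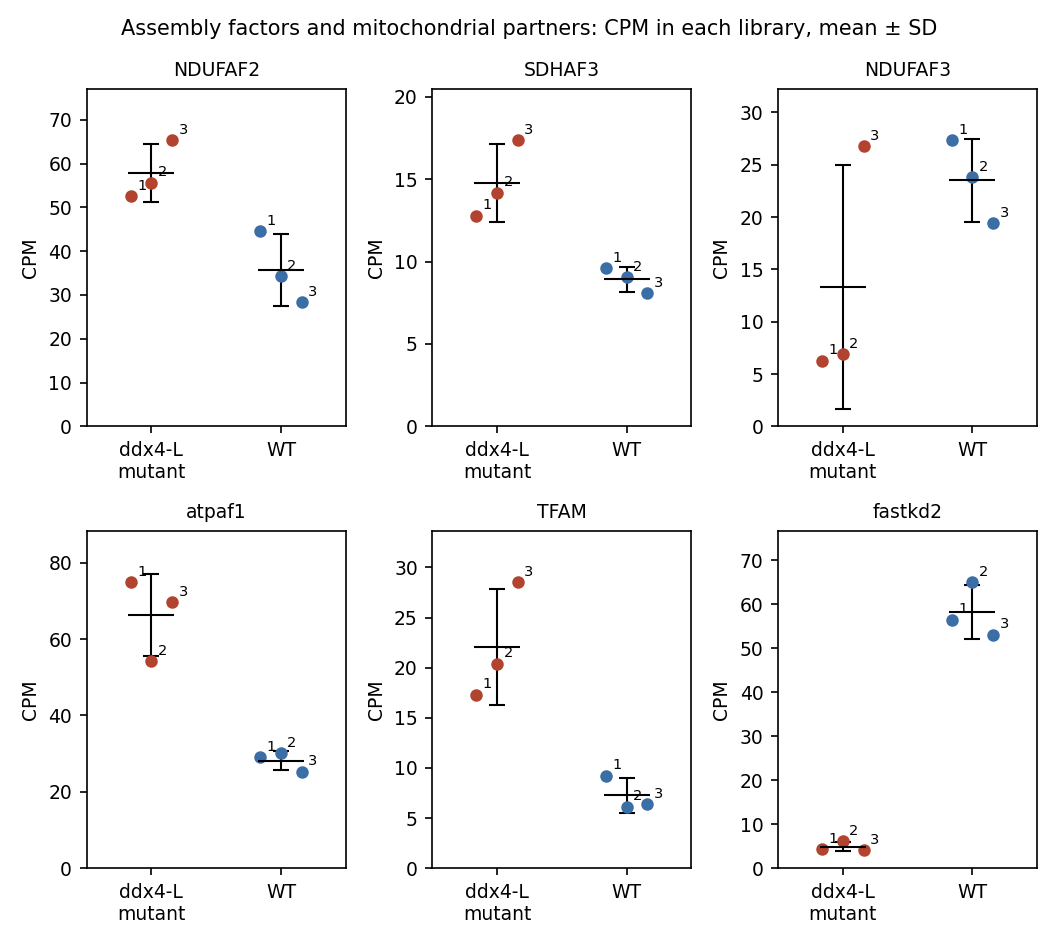
CPM of 3 assembly factors that carry the chain's symbols (NDUFAF2, SDHAF3, NDUFAF3) and of the partners atpaf1, TFAM and fastkd2, in the 3 ddx4-L mutant libraries (left, red) and the 3 WT libraries (right, blue), numbered by replicate; the long dash is the mean and the bar is ± SD. All but NDUFAF3 are apart between genotypes, and for NDUFAF3 mutant replicate 3 lies among the WT libraries.

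In protein import, which brings the nuclear subunits into the organelle, 4 of 38 tested genes were called lower and none higher. Of all genes, 2.61% were called lower and 1.96% higher. The list as a whole did not lie lower: 24 of the 38 had log2 fold changes above 0, with a median of 0.083, against 51.5% of all genes above 0. At an unadjusted p under 0.05 in edgeR, 5 were higher and 5 lower, against 9.98% and 9.96% of all genes. TIMM8A, a chaperone of the intermembrane space, had 1.13, 0.981 and 0.946 CPM in ddx4-L mutant and 28.3, 15.6 and 27.2 CPM in WT ovaries (log2 fold change -4.54 ± 0.30, SE, with edgeR adjusted p = 0.00060). A copy of the channel gene, timm23b, had 0, 0.118 and 0.240 CPM in ddx4-L mutant and 6.49, 6.73 and 4.97 CPM in WT ovaries (edgeR adjusted p = 0.025), all ddx4-L mutant values lying near or under the level of 3 reads. The copy timm23a, of far higher level, had 85.3, 93.5 and 103 CPM in ddx4-L mutant and 101, 91.6 and 88.8 CPM in WT ovaries. Its genotypes overlapped (log2 fold change 0.0065, edgeR adjusted p = 0.98). TIMM17A, another part of the same channel, and MIPEP, a peptidase that trims imported proteins, had log2 fold changes of -0.72 and -0.83 (edgeR adjusted p = 0.016 and 0.047). In each of the 4 called genes all ddx4-L mutant libraries were below all WT libraries. How reads shared by gene copies were counted is not given, which bears on timm23b. TIMM8A was called with any library left out, TIMM17A lost the call without mutant replicate 2, WT replicate 1 or WT replicate 3 (edgeR adjusted p up to 0.061), timm23b without mutant replicate 2 or any WT library (up to 0.081) and MIPEP without any 1 library (0.080 to 0.127). Of 9 other settings TIMM8A and TIMM17A were called in 9, timm23b in 8 (edgeR adjusted p up to 0.070) and MIPEP in 6 (up to 0.123).

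In the other lists few genes were called. PDP2, a phosphatase that activates pyruvate dehydrogenase, fell to 27.8 ± 3.0 CPM in ddx4-L mutant, against 53.3 ± 6.1 CPM in WT ovaries (SD, n = 3 each; edgeR adjusted p = 0.012), the only call among 23 tested genes of the citric acid cycle and pyruvate oxidation. Of 16 regulators of mitochondrial biogenesis, esrrb, an orphan nuclear receptor, rose (log2 fold change 1.58; edgeR adjusted p = 0.040). Of 16 genes of cristae and membrane, apool of the MICOS complex fell (log2 fold change -0.59; edgeR adjusted p = 0.044), and of 10 genes for defence against superoxide, the glutathione peroxidase gene gpx1a rose (log2 fold change 0.66; edgeR adjusted p = 0.048). No gene was called among the tested 9 electron carriers, 14 inner membrane carriers, 10 genes of ubiquinone synthesis or 11 of glycolysis. Some lists cover only a part of their pathway, because many symbols were not found. Those found were 14 of 33 for glycolysis, 15 of 26 for cristae and membrane, and 23 of 33 for the citric acid cycle and pyruvate oxidation. With 1 library left out PDP2 stayed called, whereas apool and esrrb were called only without mutant replicate 3 (edgeR adjusted p otherwise 0.095 to 0.124 and 0.069 to 0.115) and gpx1a was not called (0.086 to 0.122). Of 9 other settings PDP2 was called in 9, apool and esrrb in 8 and gpx1a in 5. CYC1, the cytochrome c1 of complex III, had a log2 fold change of -0.039 (0.037 with scaling by library totals; edgeR adjusted p = 0.89) and the cytochrome c gene cycsb of 0.25 (edgeR adjusted p = 0.28).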

How the data were processed

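The authors deposited 1 table of estimated counts per gene, whole numbers as RSEM gives after rounding, for 3 ddx4-L mutant and 3 WT ovary libraries. The study's methods name STAR and featureCounts on GRCz11, whereas the submitters' processing notes name HISAT2, StringTie and RSEM, so which of them made the table is not settled; annotation, strand and handling of reads with several matches are not given in the sources used here. The most frequent value above 0 was 4, so 3 reads were taken as 12 counts, 0.142 to 0.161 CPM, and intervals or floors cover counting error only. No column went unused.

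Symbols came from a table of Ensembl IDs. Genes were tested with edgeR 4.0.16 (filterByExpr, TMM, quasi-likelihood, genotype only; R 4.3.3) on the whole table, with Benjamini-Hochberg adjustment over 19353 genes; the SE is the log2 fold change divided by the root of F. CPM used TMM library sizes. A gene was called at an adjusted p under 0.05. DESeq2 1.42.0, other scalings and filters, a replicate block, values divided by 4 and leaving out each library were alternatives. The procedure was tested on simulated data, with changes only in genes of high count, larger than those of the called members, and with no library set apart. It therefore does not cover changes as small as theirs.

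Members and lists were chosen with earlier results of these data known. Named were all called members, the highest, lowest and most counted nuclear gene of each complex, all mitochondrial genes, copies of called genes, ndufv3, the inhibitors, rows at the count limit and called list genes. Genes named besides these (among them NDUFV2, NDUFS1, uqcrc2a, SDHB, COX5A, COX6A1, cox8a, cox8b, ndufa4b, ATP5MC3, NDUFAF2, NDUFAF3, SDHAF3, CYC1 and cycsb) were picked after their values were seen. No batch is labelled. No sequences or coordinates were used.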

Additional observations from a re-analysis of the deposited data

How the results depend on the processing

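The count of called members was small and moved with most settings. Against 3 members (2 higher, 1 lower) of 884 genes called, DESeq2 called 5 members (4 higher) of 2323 genes, and an adjusted p under 0.1 in edgeR called 5 of 1690. RLE and upper-quartile scaling each called 1 member (0 higher), testing all genes with a count called 0 (0 higher, 0 lower), a mean of at least 10 counts called 1 (1 higher, 0 lower), and scaling by library totals called 3 (ATP5MC3, atp5f1e and atp5meb) with 0 lower. Scaling by library totals shifted the median log2 fold change over the table to 0.096, against 0.014, and the share of calls that were higher to 56.5%, against 42.9%. On that scale the median of complex II was 0.0176, SDHA 0.0392, MT-CO3 0.0576, atp5if1a 0.0637 and CYC1 0.0365, each of the opposite sign; MT-ND2 was -0.008 with DESeq2 and RLE and -0.0117 with upper-quartile scaling. With values divided by 4, or scaling without mitochondrial genes, the called members were the same 3. The share of counts is already relative to library totals, so other scalings give it no separate value.

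Over the fits that left out 1 library, 420 to 583 genes and 0 to 2 members were called (0 to 1 higher, 0 to 2 lower, 0 to 1 with a log2 change of 1 or more, NDUFAF3 without mutant replicate 3), and the complex II median was -0.1264 to -0.0331. Log2 fold changes that took both signs there were SDHA (-0.0947 to 0.0521), cox6a1 (-0.0601 to 0.1456), MT-ND2 (-0.4704 to 0.2335), MT-CYB (-0.3647 to 0.3086), MT-CO1 (-0.3854 to 0.2171), MT-CO2 (-0.1716 to 0.3388), MT-CO3 (-0.2988 to 0.2218), MT-ATP6 (-0.5741 to 0.158), mt-atp8 (-0.6283 to 0.0933), atp5if1a (-0.0998 to 0.051) and CYC1 (-0.1109 to 0.0656). None of these was called, and the cause of the shifts was not tested.

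No pairing by replicate number was seen, and no sample is known to share a fish with another. The deviations of same-numbered libraries from their genotype means correlated at r = -0.074, 0.083 and -0.018 over genes. Libraries of different number correlated at -0.138 to 0.174. With 3 libraries per genotype, these values cannot decide whether same-numbered libraries were prepared together. With the replicate number as a block, 325 genes and 0 members were called (0 higher, 0 lower), MT-ND2 was -0.0644 and MT-CYB -0.0004. Genes with about 12 counts or fewer in most libraries, such as the second SDHD row, lie at the limit of depth.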

Other observations

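Several partners of the chain lay just above the threshold in edgeR's test and were called by DESeq2; they were picked after their values were seen. The coactivator gene ppargc1b, a regulator of mitochondrial biogenesis in mammals, had 8.52, 7.81 and 8.04 CPM in ddx4-L mutant and 17.9, 13.5 and 42.3 CPM in WT ovaries, with WT replicate 3 far above the rest (log2 fold change -1.60 ± 0.41, SE; edgeR adjusted p = 0.075, DESeq2 0.00054; 0.047 in edgeR without WT replicate 2 and 0.179 at most with another library left out). NNT, which makes mitochondrial NADPH from NADH and the proton gradient, had 247, 279 and 222 CPM in ddx4-L mutant and 329, 336 and 344 CPM in WT ovaries, and the genotypes were apart (edgeR adjusted p = 0.060, between 0.052 and 0.160 with 1 library left out). SUCLG2, a subunit of succinyl-CoA synthetase, had 17.3, 19.1 and 15.9 CPM in ddx4-L mutant and 11.5, 7.88 and 9.95 CPM in WT ovaries (edgeR adjusted p = 0.057). The more abundant SUCLG1 lay the other way, with 70.5, 72.5 and 84.3 CPM in ddx4-L mutant and 90.3, 91.9 and 93.8 CPM in WT ovaries (log2 fold change -0.28, edgeR adjusted p = 0.15). SUCLA2 had a log2 fold change of -0.0010 (edgeR adjusted p = 0.995).

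The glutathione peroxidase copies lay on opposite sides. While gpx1a was called higher, gpx1b had 4.36, 3.28 and 2.81 CPM in ddx4-L mutant and 8.17, 12.9 and 5.61 CPM in WT ovaries (log2 fold change -1.35; edgeR adjusted p = 0.084, DESeq2 0.0032). The import gene tomm7 had 17.3, 15.6 and 20.4 CPM in ddx4-L mutant and 38.0, 45.5 and 23.1 CPM in WT ovaries (edgeR adjusted p = 0.072, and 0.023 without WT replicate 3, the WT library nearest to the ddx4-L mutant libraries). Other import genes near the threshold lay the other way, apart and higher in ddx4-L mutant ovaries. The gene tomm34 had 44.6, 41.2 and 41.9 CPM in ddx4-L mutant and 32.65, 31.6 and 29.6 CPM in WT ovaries (edgeR adjusted p = 0.055). PMPCA had 67.5, 72.5 and 65.0 CPM in ddx4-L mutant and 48.1, 54.9 and 40.3 CPM in WT ovaries (edgeR adjusted p = 0.070).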
